A study of Mus musculus with 12 samples.

Results

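The C/EBP genes Cebpa, Cebpb, Cebpd, Cebpe and Cebpg were examined for binding sites of TET2, a dioxygenase that converts 5-methylcytosine to oxidized forms. A site of either deposited list was counted for a gene if its midpoint lay inside the gene. It was also counted if the midpoint lay within 100 kb of it and its start or end was nearer than that of any other protein-coding gene. These are 5 of 21887 protein-coding genes, and they took 9 of 6895 sites in leukemia cells and 18 of 18822 sites in immortalized myeloid cells. Sites came from chromatin immunoprecipitation sequencing (ChIP-seq), in which an antibody recovers the DNA fragments that a protein occupies, of mouse hematopoietic cells cultured in stem cell factor, interleukin 3 and interleukin 6. Myeloid cells carried a retroviral AML1-ETO transgene (MigR1-AML1-ETO), with the genotype Tet2fl/fl; AML1-ETO as wild type and Tet2-/-; AML1-ETO as knockout. Acute myeloid leukemia (AML) cells had no transgene and the genotype Npm1+/cA; Fl3+/ITD as wild type, spelled as in the label, with Tet2-/- added in the knockout. An antibody to the N terminus of TET2 gave 8 of the 12 libraries, with 2 per genotype and cell type, and each cell type also had 1 input and 1 IgG library. Chromatin was fixed with disuccinimidyl glutarate and then formaldehyde, so a site can also reflect TET2 held at DNA by other proteins. The labels do not say whether replicates came from separate animals or clones.

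C/EBP proteins are transcription factors with a basic region that contacts DNA and a leucine zipper through which they pair with each other. In the blood system they drive progenitors toward granulocytes and macrophages. C/EBP alpha is needed for the step from common myeloid to granulocyte-macrophage progenitors, and its gene is mutated in part of human AML. C/EBP beta serves macrophages and the rapid granulocyte output of infection, C/EBP delta responds to inflammation, and C/EBP epsilon is needed for late granulocyte maturation. C/EBP gamma lacks a transactivation domain and acts as a dimer partner.

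Each list gives 1 set of sites per cell type, with no height, score or value per library, so the depth behind a site is unknown and no site has a replicate error. Wild type and knockout could not be compared from the lists. A site absent from a list may lie below the threshold of the authors' peak caller. The intervals below cover counting error only.

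The start of transcription was occupied in the myeloid list at Cebpa and Cebpg and not at Cebpb. The 300 bp promoter windows (250 bp before to 50 bp after the start, RefSeq, GRCm38.p6, which has the coordinates of mm10) of these 3 genes are shown. The promoter annotation used held only these 3 of the 5 members. Whether the start of transcription was occupied at Cebpd and Cebpe was therefore not determined. Capitals mark TATAAA in Cebpa, TATAAA and TGACG or its complement CGTCA in Cebpb, and ATTGG, the complement of CCAAT, in Cebpg. The Cebpa window is chr7:35119043-35119342 on the plus strand, the Cebpb window chr2:167688665-167688964 on the plus strand and the Cebpg window chr7:35056517-35056816 on the minus strand, all written 5′ to 3′.
Cebpa: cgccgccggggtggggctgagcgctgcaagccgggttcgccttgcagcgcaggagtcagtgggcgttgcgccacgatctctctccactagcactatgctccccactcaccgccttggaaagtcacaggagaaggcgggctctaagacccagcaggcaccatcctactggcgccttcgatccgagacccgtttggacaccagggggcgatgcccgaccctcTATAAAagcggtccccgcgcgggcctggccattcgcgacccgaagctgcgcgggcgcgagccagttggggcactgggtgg
Cebpb: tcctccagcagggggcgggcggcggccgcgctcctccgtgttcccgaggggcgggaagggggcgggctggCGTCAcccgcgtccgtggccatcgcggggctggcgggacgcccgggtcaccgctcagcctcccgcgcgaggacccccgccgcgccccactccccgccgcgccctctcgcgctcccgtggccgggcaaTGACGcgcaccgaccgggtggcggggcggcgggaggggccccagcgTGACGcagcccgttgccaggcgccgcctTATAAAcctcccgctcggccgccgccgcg
Cebpg: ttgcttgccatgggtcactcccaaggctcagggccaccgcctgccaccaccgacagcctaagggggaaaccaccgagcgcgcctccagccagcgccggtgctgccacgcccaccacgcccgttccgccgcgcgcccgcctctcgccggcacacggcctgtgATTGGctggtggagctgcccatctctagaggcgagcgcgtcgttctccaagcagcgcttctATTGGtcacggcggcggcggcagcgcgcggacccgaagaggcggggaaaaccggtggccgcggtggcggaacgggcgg

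Myeloid sites covered all 300 bp of the Cebpa and Cebpg windows. The Cebpb window was not covered, and the nearest myeloid site ended 505 bp before it. AML sites covered 0 bp of the 3 windows, and the nearest lay 34931 bp from the Cebpa window, 21495 bp from the Cebpb window and 152 bp from the Cebpg window. Over 21263 promoter windows of protein-coding genes, 19.0% met a myeloid site and 1.74% met an AML site. The 3 windows were rich in CG dinucleotides, the substrate context of DNA methylation, with 29 in Cebpa, 50 in Cebpb and 38 in Cebpg, against a median of 13 over all windows. As many CG as in Cebpb were found in 1.10% of windows, as many as in Cebpg in 6.47% and as many as in Cebpa in 17.2%. Over all windows the median was 23 CG in those met by a myeloid site and 9 in the others. The Cebpb window, with the most CG of the 3, was uncovered. How many equally CG-rich windows were uncovered was not computed.

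Motifs were searched on both strands. TTGCNNAA, a form of the C/EBP recognition sequence, was in none of the 3 windows and in 10.2% of all windows. TGACG, the core of the cyclic AMP response element, had 3 matches in Cebpb and 0 in Cebpa and Cebpg, and was in 23.6% of windows. CCAAT had 2 matches, both in Cebpg (38.2% of windows), and TATAAA had 1 match each in Cebpa and Cebpb (12.6%). GGGCGG had 5 matches in Cebpb and 1 in Cebpg (46.2%). A match describes these letters only and does not show that a factor binds there.

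Cebpb had most of the sites. The AML list gave it 5 sites (1.62 to 11.7, exact Poisson 95% interval) and the myeloid list 11 (5.49 to 19.7). Cebpd and Cebpe had 2 sites in each list, Cebpa had 0 AML sites and 2 myeloid sites, and Cebpg had 0 and 1. Thus 3 of the 5 genes had an assigned AML site, where 19.7% of all protein-coding genes did, and 5 of 5 had a myeloid site, where 41.9% did. As many AML sites as Cebpb were found at 0.434% of genes, and as many myeloid sites at 0.16%. Both conditions held for 0.0959% of genes, or 21 of them with Cebpb. At least 2 AML sites, as at Cebpd and Cebpe, were found at 6.52% of genes, and at least 2 myeloid sites, as at Cebpa, Cebpd and Cebpe, at 19.5%. These counts and shares take no account of how much sequence within 100 kb was nearest to a gene. That length was 115 kb at Cebpb, 113 kb at Cebpd, 65.5 kb at Cebpa, 12.5 kb at Cebpe and 6.47 kb at Cebpg.

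**Figure D1:**
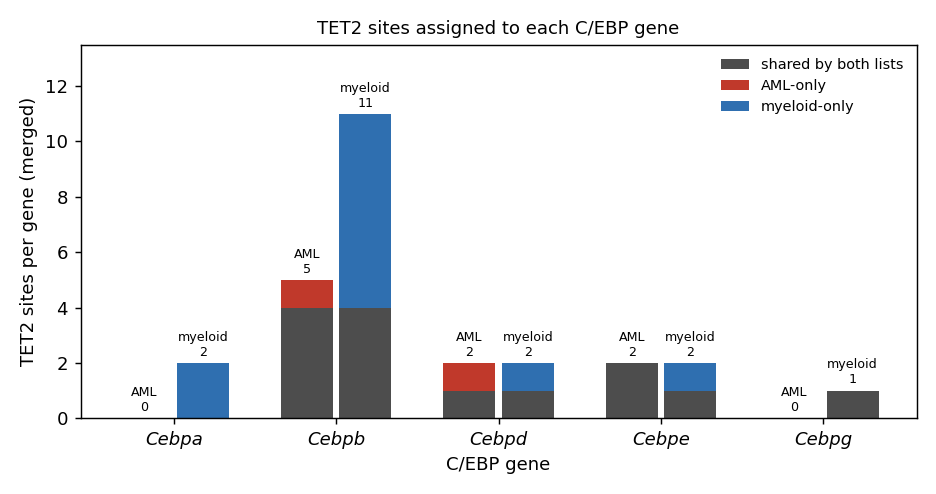
Merged TET2 sites per C/EBP gene (vertical axis, number of sites) in the AML and myeloid lists, with shared sites in grey and sites of 1 list in color. Cebpb has 5 and 11 sites, and no other member exceeds 2 in either list.

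**Figure D2:**
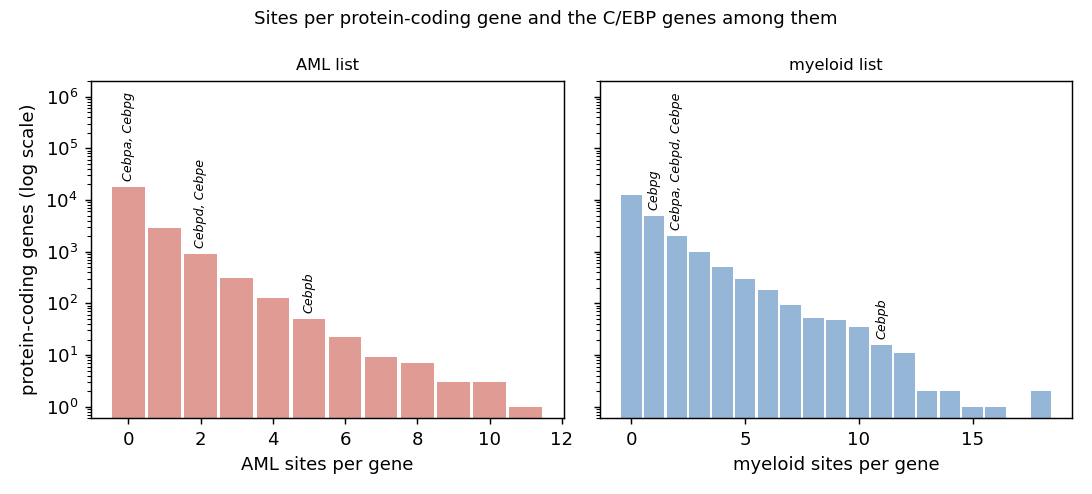
Number of protein-coding genes (vertical axis, log scale) by sites per gene (horizontal axis) in each list, with the C/EBP genes written above the bar they fall in. Cebpb lies in the upper tail of both lists, at 5 AML and 11 myeloid sites, and the other members lie between 0 and 2.

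Most AML sites at the C/EBP genes were shared with the myeloid cells, as in the list as a whole. Of the 9 AML sites, 7 overlapped a myeloid site by at least 1 bp (77.8%, Clopper-Pearson 95% interval 40.0 to 97.2), against 71.4% (70.3 to 72.4) of all AML sites. Of the 18 myeloid sites, 7 were shared (38.9%, 17.3 to 64.3), against 26.2% (25.5 to 26.8) of all myeloid sites. The 7 AML and 7 myeloid sites are not 7 pairs. At Cebpe 2 AML sites overlapped 1 myeloid site, and the AML partner of the Cebpg site was counted for another gene, Gm45095. Shared myeloid sites thus lay at 4 members. A shared AML site was found at 3 of the 5 genes and at 15.5% of all genes. The 2 AML-only sites lay at Cebpb and Cebpd, and 7.1% of all genes had such a site. The 11 myeloid-only sites comprised 7 at Cebpb, 2 at Cebpa, 1 at Cebpd and 1 at Cebpe, and 36.9% of all genes had one.

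Cebpb, on chromosome 2 from 167688915 to 167690432, is transcribed toward higher coordinates, and its AML sites all lay downstream of it. They began 20.4 kb past the gene (chr2:167710459-167711149). The second lay at 33.4 kb (chr2:167723530-167724214), the next at 63.7 kb (chr2:167753706-167754569) and the fourth at 85.0 kb (chr2:167775012-167775845). These 4 were shared. The fifth, at 87.0 kb (chr2:167777108-167777830), was AML-only, with the nearest myeloid midpoint 2.00 kb away. Both of the last 2 lay inside the annotated long non-coding RNA Gm32287, and the other 3 were in no annotated gene.

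The myeloid cells held the same 4 shared positions and 7 more sites. The midpoints of the 4 shared pairs differed by 10.5, 59, 11 and 45.5 bp, against a median of 25.5 bp over all shared pairs. Of the 7 myeloid-only sites, 6 lay among the shared positions, from 24.8 to 74.9 kb downstream. The seventh (chr2:167687408-167688160) was the 1 site upstream, 1.13 kb before the start of transcription. Of the 11 myeloid sites, 1 each lay inside the long non-coding RNAs Gm38464, Gm52570 and Gm32287. Shared myeloid sites were 699 to 1018 bp wide and the myeloid-only sites 645 to 752 bp. Over the whole myeloid list the medians were 758 bp for shared and 695 bp for myeloid-only sites. The 2 widest Cebpb sites, 997 and 1018 bp, were the shared ones at 63.7 and 85.0 kb, and 5.69% and 5.25% of myeloid sites were as wide.

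The interval between Cebpb and the next gene downstream held many myeloid sites on either side of a gap. Ptpn1, which encodes a tyrosine phosphatase that acts on cytokine receptor kinases, lies 240.3 kb past Cebpb. Of 18 myeloid sites in the interval, 10 were nearest to Cebpb and the other 8 to Ptpn1. No myeloid site lay between those at 85.0 and 141 kb past Cebpb, where the AML list had its site at 87.0 kb. Over the whole myeloid list the median distance to the next site was 31.1 kb. The interval had 7.49 myeloid sites per 100 kb, against 1.01 per 100 kb over all sequence within 100 kb of a gene end. The AML list had 6 sites there, 5 of them nearest to Cebpb, or 2.50 per 100 kb against 0.358. Some shorter intervals beside other members had similar or higher densities from fewer sites, and others had lower ones. The myeloid density was 6.23 per 100 kb between Cebpa and Slc7a10 (4 sites), 8.36 between Mzt2 and Cebpd (2 sites) and 9.96 between Cebpe and Slc7a8 (1 site). The AML density was 3.12 between Cebpa and Slc7a10 (2 sites) and 17.6 between Gm29776 and Cebpe (2 sites, which overlapped 1 myeloid site). Between Gm45095 and Cebpa the myeloid density was 3.24 (2 sites), with 0 AML sites. The AML list also had 0 sites between Mzt2 and Cebpd and between Cebpe and Slc7a8. Both lists had 0 between Pepd and Cebpg. The 27.4 kb on the other side of Cebpb, up to Tmem189, held 0 AML sites and 1 myeloid site. Within 100 kb of either end of Cebpb, whatever gene was nearest, lay 8 AML and 16 myeloid sites, numbers reached by 0.288% and 0.411% of genes.

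**Figure D3:**
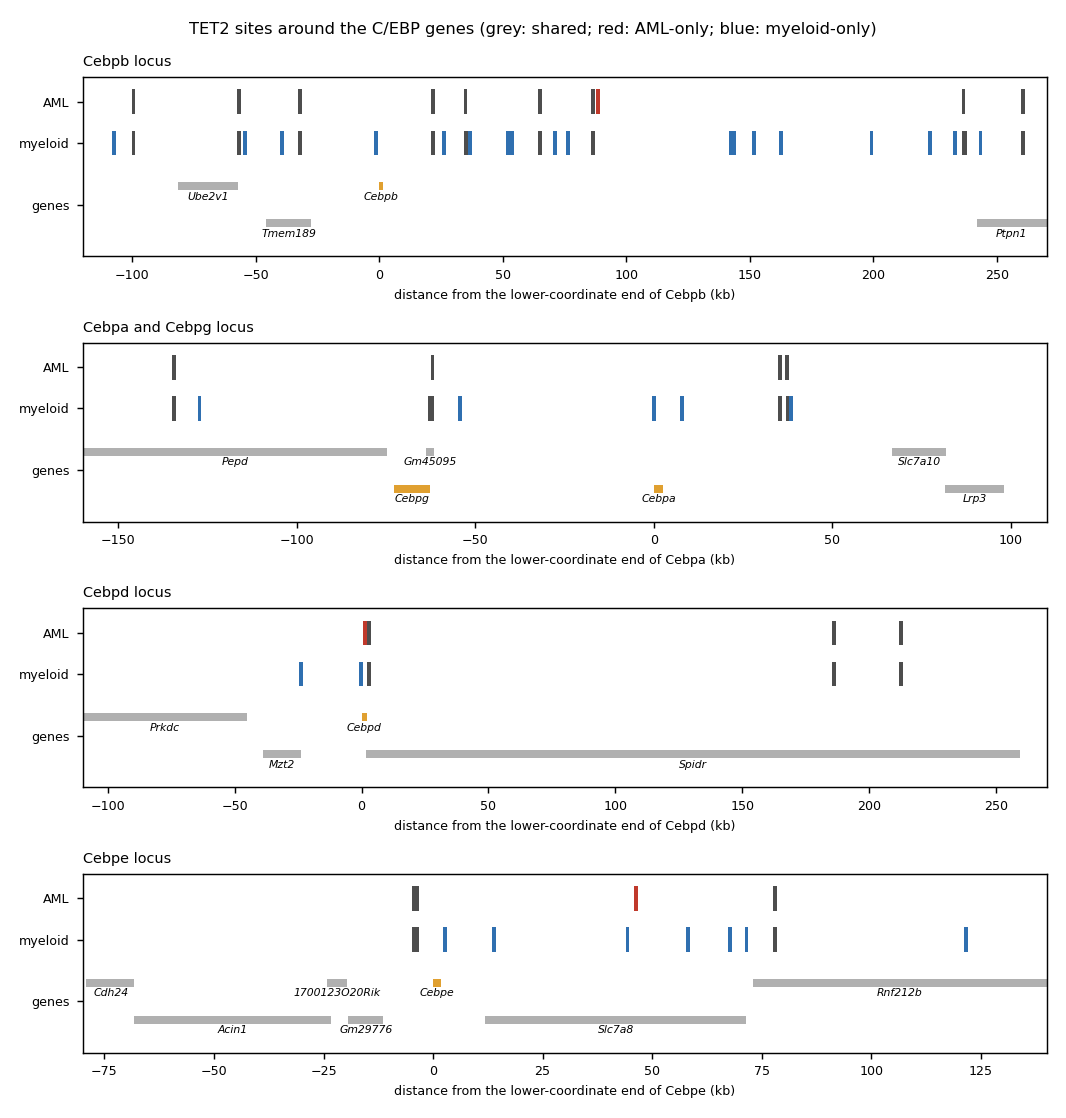
Sites of both lists and protein-coding genes (C/EBP genes in orange) around the members, by distance in kb from the lower-coordinate end of the named gene. Sites are drawn at a minimum width for visibility. All 5 AML sites and 10 of the 11 myeloid sites of Cebpb lie on its right, and at Cebpa 2 shared sites stand 35.3 and 37.4 kb from its start.

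The balance of unshared sites at Cebpb was close to that over all genes. It had 1 AML-only and 7 myeloid-only sites (12.5% AML-only), against 11.7% AML-only over all gene assignments. The odds ratio was 1.08 (95% interval 0.0239 to 8.39; two-sided Fisher's exact test, adjusted p = 1 over 452 genes with at least 5 unshared sites). By this test 0.664% of genes had an adjusted p under 0.05, all toward AML-only sites, and 5.53% had an unadjusted p under 0.05. The test treats each site as independent, though sites are not replicates. Its p-values and interval therefore do not measure variation between cultures. Only this direction could be called among the genes tested. A gene with 0 AML-only and 14 myeloid-only sites had an unadjusted Fisher exact p of 0.395. With 8 unshared sites, even 0 AML-only sites would give an unadjusted Fisher exact p of 0.608, so a lean toward the myeloid cells was not detectable here. The other members had too few unshared sites to be tested. The interval of the odds ratio includes large differences either way.

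The count at Cebpb depended on which genes were allowed to compete for a site. With all annotated genes, long non-coding RNAs included, Cebpb kept 0 AML sites and 1 myeloid site, and with a limit of 50 kb it kept 2 and 5. Proximity does not show which gene a site acts on.

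Cebpa and Cebpg are neighbours on chromosome 7 and differed in where their sites lay. Cebpa (35119293 to 35121928) had 2 myeloid-only sites. The first (chr7:35118905-35119606) covered the start of transcription, and the second (chr7:35126752-35127672) lay 5.28 kb past the end of the gene. The second was merged from 2 deposited sites and 920 bp wide, and 8.25% of myeloid sites were as wide. No AML site was assigned to Cebpa.

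Downstream of Cebpa the AML list did hold sites, which the nearest-gene rule gave to Slc7a10, an amino acid transporter gene. One (chr7:35154273-35155012) lay 35.3 kb from the Cebpa start and was 31.5 kb from Slc7a10 and 32.7 kb from the end of Cebpa. The next (chr7:35156331-35157067) lay 37.4 kb from the Cebpa start. Both were shared with myeloid sites, by 739 and 726 bp, and the myeloid list added 1 more site 38.3 kb from the start (chr7:35157297-35157980). A myeloid enhancer of Cebpa is known downstream of the gene in the mouse, and whether these sites coincide with it was not tested. Within 100 kb of the ends of Cebpa, whatever gene was nearest, lay 3 AML sites and 7 myeloid sites, as many as at 15.1% and 18.8% of all genes.

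Cebpg (35046422 to 35056566), which is transcribed toward lower coordinates, had a wide site across its start. The myeloid site (chr7:35056124-35057690) was merged from 2 deposited sites and was 1566 bp wide, and 0.42% of myeloid sites were as wide. An AML site (chr7:35056968-35057642) lay inside it, 739 bp from the start of Cebpg. It was counted for Gm45095, a predicted gene that overlaps the start of Cebpg. Without predicted genes of this kind, Cebpg had 1 AML site and 2 myeloid sites in place of 0 and 1. The AML cells thus had a site beside Cebpg and none at the start of Cebpa.

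Cebpd was the 1 member with a site inside the gene. It lies on chromosome 16 from 15887286 to 15889545 and its upper end overlaps the lower end of Spidr, a DNA repair gene. In the AML list a site inside Cebpd (chr16:15888218-15888930) was AML-only. In the myeloid list a site across the lower end of the gene (chr16:15886384-15887698) was myeloid-only and 1314 bp wide, and 1.53% of myeloid sites were as wide. Their midpoints were 1.53 kb apart. Just past the upper end both lists had a site, at chr16:15889749-15890540 in AML and chr16:15889798-15890496 in myeloid cells, with midpoints 2.5 bp apart. So Cebpd had 1 shared site and 1 site of each list alone, within 3 kb of its lower end.

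Cebpe, on chromosome 14 from 54710363 to 54712174, had its shared site outside the gene. In the AML list it was a pair, chr14:54705691-54706389 and chr14:54706398-54707181, and the myeloid list had 1 site there merged from 2 deposited ones (chr14:54705645-54707137). The myeloid site was 1492 bp wide, and 0.579% of myeloid sites were as wide. The AML midpoints lay 4.32 and 3.57 kb from the lower end of the gene and 6.13 and 5.38 kb from the upper end. A myeloid-only site (chr14:54712685-54713447) lay 892 bp past the upper end. Slc7a8 lies 10.04 kb above Cebpe, and the territory nearer to Cebpe than to other genes is short at 12.5 kb.

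Sites within 1 kb of either gene end were 2 of the 9 AML sites, both at Cebpd, and 5 of the 18 myeloid sites. In the whole lists, 8.82% of AML sites and 22.6% of myeloid sites lay this close to a protein-coding gene end. The 5 myeloid sites lay at Cebpa, Cebpe and Cebpg with 1 each and at Cebpd with 2. A gene-end site was thus found at 1 of the 5 members in AML and 4 of 5 in myeloid cells, against 2.84% and 19.5% of all genes. With a limit of 0.5 kb the counts were 0 and 3 sites.

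**Figure D4:**
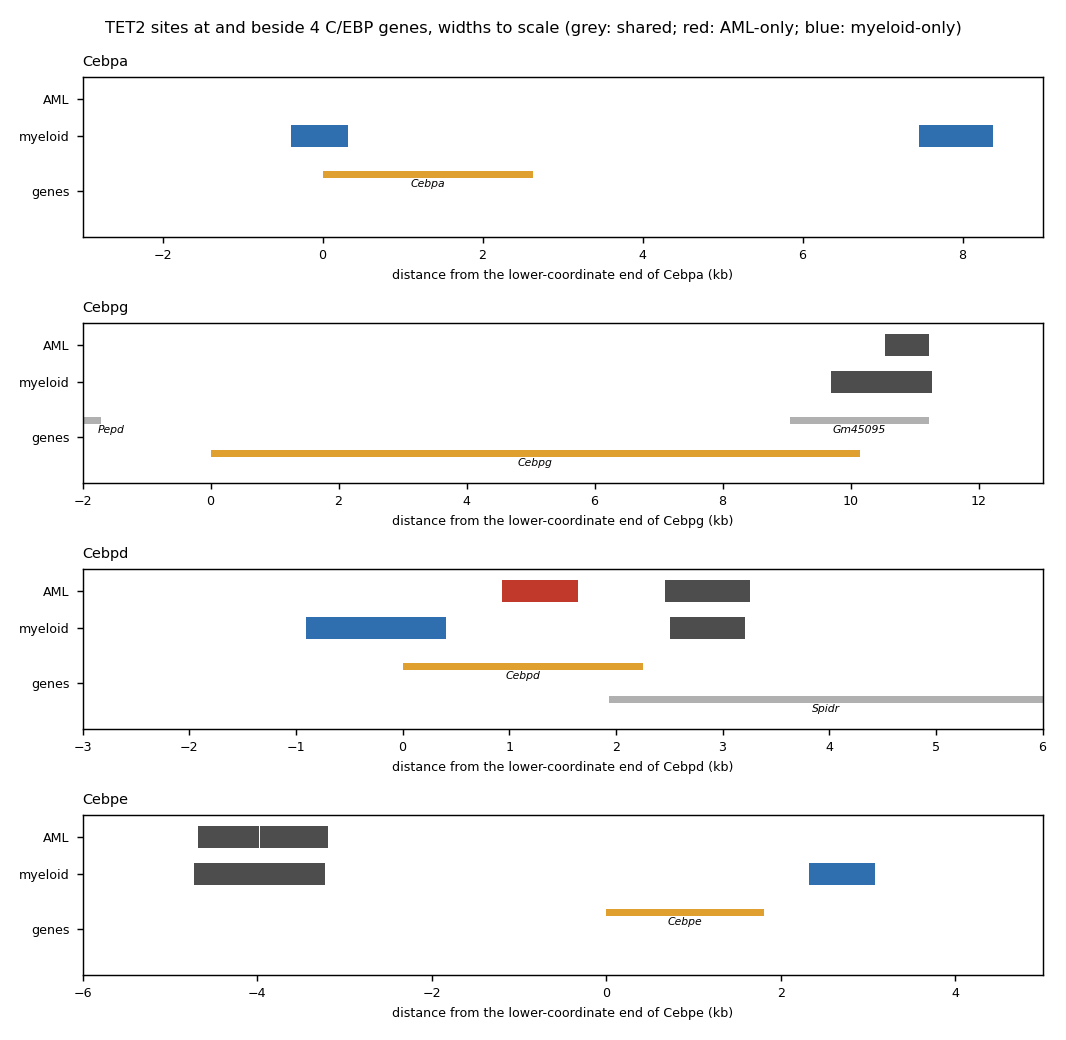
Sites at and beside Cebpa, Cebpg, Cebpd and Cebpe, to scale, by distance in kb from the lower-coordinate end of each gene, with shared sites in grey, AML-only in red and myeloid-only in blue. The starts of Cebpa and Cebpg are covered in the myeloid list, and Cebpd holds an AML-only site inside the gene.

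Genes with counts most like those of Cebpb were chosen by the summed difference in AML, myeloid and shared sites. Nedd9 had the same counts (5, 11 and 4). Ahi1 and Tg, with 5, 10 and 4, and Atxn1 and Gas7, with 4, 11 and 4, differed by 1. This likeness rests on 3 counts per gene.

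Genes that act with C/EBP factors were set beside the members, in lists chosen with earlier results of these data known. Of 17 granulocyte genes known as C/EBP targets, 15 had an assigned AML site and 16 a myeloid site, against 19.7% and 41.9% of all genes. An assigned site could lie up to 100 kb away. Only Camp, Lcn2, Mmp8, S100a8, S100a9, Itgam and Chil3 had an AML site within 1 kb of a gene end. The median of the 17 genes was 1 AML and 3 myeloid sites, against 0 and 0 over all genes. Of their 25 AML sites, 22 were shared. Chil3, a chitinase-like protein of myeloid cells, had 4 AML and 3 myeloid sites, the transcriptional repressor gene Gfi1 had 2 and 4, and the interleukin 6 receptor gene Il6ra had 1 and 5. At Cd177, which encodes a surface protein of neutrophils, there were 3 and 2. Csf3r, whose product binds the growth factor G-CSF, had 1 site, in the myeloid list alone. Elane, named after its values were seen, had 0 in both.

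Of 6 genes that control the amount or translation of C/EBP proteins, 3 had an assigned AML site and 4 a myeloid site. The shares of all genes were 19.7% and 41.9%. Their medians were 0.5 AML and 1 myeloid site, against 0 and 0 over all genes. Trib1, a pseudokinase that brings C/EBP alpha to the ubiquitin ligase COP1, had 2 AML and 8 myeloid sites, 1 of them shared. Its 1 AML-only and 7 myeloid-only sites equalled those of Cebpb (Fisher's exact test, adjusted p = 1). Cop1 itself had 2 and 4, Calr 1 and 1, and Trib3 0 and 1. Trib2 and Pcbp2, named after their values were seen, had 0 in both.

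Of 9 related basic leucine zipper genes, 3 had an assigned AML site and 7 a myeloid site, against 19.7% and 41.9% of all genes. Their medians were 0 AML and 2 myeloid sites, against 0 and 0 over all genes. Nfil3, a repressor of this class, had 1 AML site and 5 myeloid sites, none shared (adjusted p = 1 by Fisher's exact test). Ddit3, the stress-induced C/EBP partner CHOP, had 2 sites in each list, all shared and 1 at a gene end. Batf3 had 1 and 3, Tef 0 and 3, and Atf4 0 and 2.

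**Figure D5:**
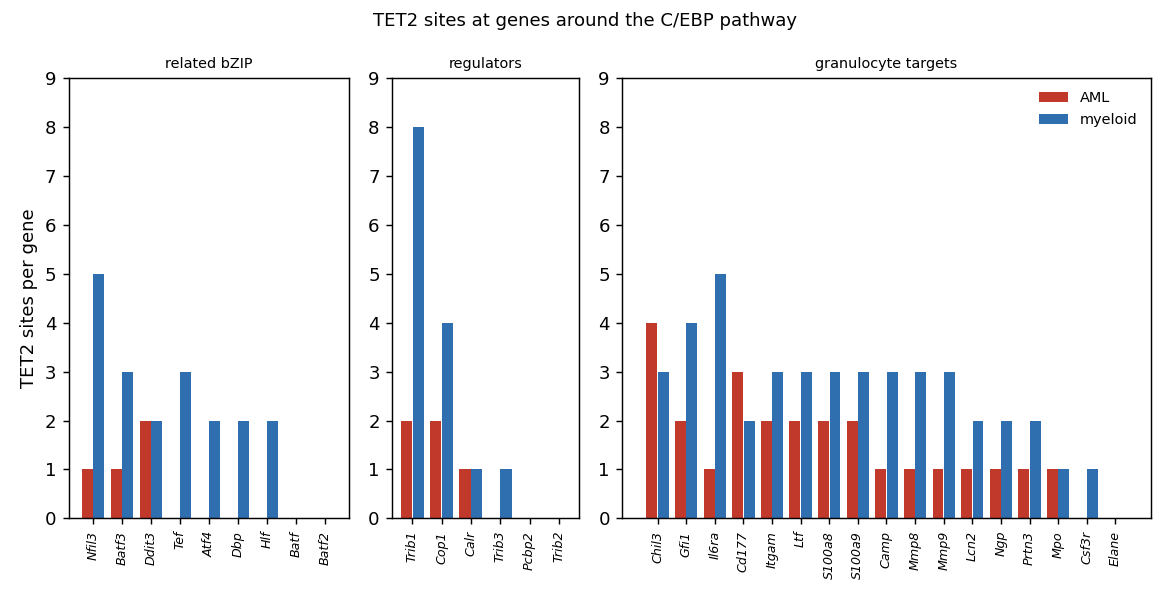
TET2 sites per gene (vertical axis) in the AML list (red) and myeloid list (blue) for related basic leucine zipper genes, regulators of C/EBP proteins and granulocyte genes known as C/EBP targets. Trib1 has 2 and 8 sites, and of the 17 granulocyte genes only Elane has none in either list.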

How the data were processed

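TET2 ChIP-seq sites of 2 cell types were analysed. The authors deposited a list of sites for each cell type, whose columns are chromosome, start and end, per the file headers. Per the submitters' processing notes, Trimmomatic, Bowtie2, MACS2 and the mm10 build were used. The sources used here give no versions or thresholds, and do not say how replicates, knockout, IgG and input libraries were used. Whether starts count from 0 or 1 is not stated either, so positions are uncertain by 1 bp.

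Overlapping sites of a list were merged (7002 AML sites to 6895, with 1 site on an unplaced contig left out, and 19706 myeloid sites to 18822). Genes came from a RefSeq table of GRCm38.p6, which gives no exons, so exonic and intronic positions are not reported, and strand came from the promoter table. A site inside 1 gene and nearest to another counted for both. Every gene with at least 5 unshared sites entered Fisher's exact test with Benjamini-Hochberg adjustment. The test was tried on simulated independent sites with strong leans toward AML-only sites alone. That trial says nothing about leans toward myeloid-only sites or about clustered sites. Members, gene lists and the rule for named genes (all members, their neighbours, per gene list the 4 genes richest in sites and up to 2 occupied in 1 list alone, and 5 genes most like Cebpb) were chosen with earlier results of these data known. Python 3.11.15, pandas 2.3.3 and scipy 1.17.1 were used. Alternatives changed merging, overlap, competing genes, distances and the test minimum.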

Additional observations from a re-analysis of the deposited data

How the results depend on the processing

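Over 12 alternatives, of which 10 were planned and 2 added after the data were seen, 48 of 58 recomputed totals stayed within 1.5 times the reported value. For single members, with the Cebpb test included, 76 results held and 16 counts moved beyond that range. Some of these results could not change, such as site counts when only the overlap rule was altered. The tallies therefore overstate stability. With all annotated genes competing, the 5 genes had 4 AML sites and 7 myeloid sites, with 3 shared in each list. With a gene end limit of 0.5 kb, 0 AML and 3 myeloid sites lay at an end. Counting every site within 100 kb of a member, whatever gene was nearest (added), gave 18 AML sites, 15 of them shared, and 36 myeloid sites, 14 of them shared. With distances to the start of transcription alone, or without predicted Gm genes (added), Cebpg had 1 AML and 2 myeloid sites. The first was run for Cebpa, Cebpb and Cebpg only. The adjusted Fisher exact p of Cebpb was 1 in the 6 alternatives where it could be tested, which says nothing about stability because 8 unshared sites cannot show a lean toward the myeloid cells. No paired analysis was possible because the lists hold no value per library, and leaving out a replicate was not possible for the same reason. Depth is unknown, so a gene with no site in a list is not shown to lack TET2.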

Other observations

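Genes beside the C/EBP genes also carried sites. Ptpn1, the neighbour of Cebpb, had 2 AML and 10 myeloid sites, and both AML sites were shared. Spidr, which overlaps Cebpd by coordinates, had 4 AML sites, 3 of them shared, and 3 myeloid sites. Both AML sites of Cebpd and its shared myeloid site were among these, counted for both genes. Slc7a8, the amino acid transporter gene beside Cebpe, had 1 AML site and 5 myeloid sites, none of them shared. Pepd, which lies beside Cebpg and encodes a dipeptidase, had 1 and 3. Gm29776 had 0 in both lists, and Mzt2 had 0 and 1.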
